A study of Mus musculus with 2 samples.

Results

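The 10 genes described here are the ligands Tgfb1, Tgfb2 and Tgfb3, the receptors Tgfbr1, Tgfbr2 and Tgfbr3, the signal carrier Smad3, and the feedback inhibitors Smad6, Smad7 and Bambi. They were listed by name among the 28000 features of the count matrices and were read in aortic smooth muscle cells (SMCs) marked by eGFP. The cells were sorted from thoracic aortas at 24 weeks of age, from C57BL/6 males. All mice carried Myh11-CreERT2, a recombinase switched on by tamoxifen in cells that use the SMC gene Myh11, and the mT/mG reporter, which changes a cell from tdTomato to eGFP once the recombinase has acted. Control mice were Tsc1+/+, and knockout (KO) mice were Tsc1 fl/fl and so were meant to lose Tsc1 in the same cells (Tsc1-/-). Tamoxifen was given to both at 1.5 weeks of age, and viable GFP+ cells were sorted after enzyme digestion and profiled in droplets. There was 1 library per genotype, and the sources used here do not give the number of animals behind each. No test between genotypes was therefore possible, there is no replicate check, and every interval below covers counting error only.

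TGF-beta is secreted in a latent form, is released by proteases, integrins or thrombospondin, and binds TGFBR2, which recruits and phosphorylates TGFBR1. TGFBR1 then phosphorylates SMAD2 and SMAD3, which enter the nucleus with SMAD4. TGFBR3 (betaglycan) presents ligand, above all the product of Tgfb2, to the signalling receptors. SMAD7 blocks the receptors of the TGF-beta branch, SMAD6 acts mainly on the bone morphogenetic protein (BMP) branch, and BAMBI is a decoy receptor without a kinase. All 3 inhibitors are themselves targets of the pathway in many cells. In the aorta the pathway is known for its part in SMC differentiation and in inherited aneurysm.

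Promoter sequences are shown for the 4 genes that stood past 1.5-fold between the genotypes and that had an entry in the RefSeq promoter table (build GRCm38.p6). There, 6 of the 10 genes were found. Each line gives the 250 bases before the annotated start, 5′ to 3′ on the gene's strand, outside the transcript. Capitals mark matches to the letters CAGAC (a SMAD box), GTCTAGAC (its palindrome), GGCGCC (a GC-rich SMAD box) or CACGTG (an E-box), searched on both strands. No motif of these contains another.
Tgfb1 (chr7:25686752-25687001, plus strand): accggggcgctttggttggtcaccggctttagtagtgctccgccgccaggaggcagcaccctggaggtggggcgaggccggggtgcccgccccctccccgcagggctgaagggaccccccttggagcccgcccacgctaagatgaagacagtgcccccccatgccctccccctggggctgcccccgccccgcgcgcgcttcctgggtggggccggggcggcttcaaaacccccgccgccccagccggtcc
Tgfb2 (chr1:186705990-186706239, minus strand): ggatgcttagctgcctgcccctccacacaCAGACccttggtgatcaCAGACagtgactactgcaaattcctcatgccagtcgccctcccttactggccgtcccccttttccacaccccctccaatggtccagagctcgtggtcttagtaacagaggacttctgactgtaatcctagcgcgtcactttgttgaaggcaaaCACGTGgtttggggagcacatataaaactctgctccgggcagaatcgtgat
Tgfbr2 (chr9:116175364-116175613, minus strand): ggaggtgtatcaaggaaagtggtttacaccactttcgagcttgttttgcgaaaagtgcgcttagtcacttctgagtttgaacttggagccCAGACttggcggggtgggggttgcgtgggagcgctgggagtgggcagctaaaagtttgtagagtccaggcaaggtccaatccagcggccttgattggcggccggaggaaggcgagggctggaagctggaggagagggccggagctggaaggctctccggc
Smad6 (chr9:64022060-64022309, minus strand): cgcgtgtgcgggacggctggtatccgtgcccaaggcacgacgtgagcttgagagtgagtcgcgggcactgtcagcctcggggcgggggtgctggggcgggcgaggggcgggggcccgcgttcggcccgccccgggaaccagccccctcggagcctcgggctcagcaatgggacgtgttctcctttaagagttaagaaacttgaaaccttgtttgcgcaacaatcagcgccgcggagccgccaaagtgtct
Within this window Tgfb2 held 2 CAGAC matches and 1 E-box, and Tgfbr2 held 1 CAGAC match. Tgfb1 and Smad6 held none of the 4 motifs, nor did Smad3. Of the 2 start sites listed for Tgfbr1, the first held GGCGCC and the other CAGAC. Among all 32851 promoter windows in the table, 42.2% held CAGAC, 9.59% GGCGCC, 6.02% CACGTG and 0.167% GTCTAGAC. A match describes the letters only, since binding was not measured.

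Cells were kept with at least 5 eGFP UMIs (unique molecular identifiers, 1 per captured RNA molecule), 500 or more genes, and no more than 10% mitochondrial UMIs. This left 1692 of 2095 control cells with 20011501 UMIs and 1919 of 2097 KO cells with 30778165 UMIs, at medians of 11665 and 15012 UMIs per cell. Of the control cells that passed the other limits, 330 had no eGFP UMI, against 12 KO cells. The libraries shared 16 barcodes, 4 of them among kept cells. Tsc1 itself stood at 9.54 CPM (counts per 1000000 UMIs) in control and 8.55 CPM in KO cells, a ratio of 0.895 (95% interval 0.740 to 1.08). Droplet tags can lie outside a deleted part of a gene, so this does not check the labels. All 7 SMC markers were above 10 CPM in both libraries, and no macrophage, lymphocyte or platelet marker reached 10 CPM. Of 6 endothelial markers only Pecam1 reached 10 CPM, at 18.4 CPM in control and 11.2 CPM in KO cells. Cdh5, Kdr, Cldn5 and Tie1 had no UMI in control cells, nor did Cdh5 and Tie1 in KO cells. Vwf stood at 1.40 CPM in control and 0.357 CPM in KO cells. Of 4 glia markers, 1 reached 10 CPM in KO cells and 0 in control cells. The 7 fibroblast markers summed to 41.8 CPM in control and 657 CPM in KO cells, of which Dcn (decorin) alone made up 22.9 and 352 CPM. Of these markers 1 was at 10 CPM or more in control and 4 in KO cells, and none was at 0.

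Because the KO cells lay lower than the control cells on a score of contractile genes, the genes were also read along it. The contractile share is the percentage of a cell's UMIs from 14 contractile genes such as Acta2, Tagln and Myh11, none of them among the 10. It ran from 0.517% to 10.5% with a median of 5.15% in control cells, and from 0.114% to 8.92% with a median of 2.25% in KO cells. Cuts at 1.38% and 3.15%, which split the KO cells evenly, gave a high range of 1503 control and 640 KO cells, an intermediate range of 186 and 639, and a low range of 3 and 640. These are ranges of a score and not cell types. Within 0.25 percentage points of the upper cut lay 111 control and 164 KO cells, and within the same distance of the lower cut 7 and 181. The 3 control cells in the low range were too few to compare. Fibroblast marker UMIs per cell had a median of 0 in both control ranges compared, 1 in the high and intermediate KO ranges, and 7 in the low KO range. As sums the same markers stood at 20.7 CPM in control and 81.6 CPM in KO cells of the high range, and at 199 and 197 CPM in the intermediate range.

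Over all kept cells, KO cells held more Tgfb1, Tgfbr2 and Smad7 RNA and less Tgfb2, Tgfb3, Smad6 and Bambi RNA than control cells. The threshold was a ratio of at least 1.5 or at most its inverse among genes at 10 CPM or more in a library. By that rule 3 of the 10 genes were higher and 4 lower, where 13.2% of the 8113 genes measured at this level were higher and 11.4% lower. Tgfbr1, Tgfbr3 and Smad3 stayed inside it. The median log2 ratio was 0.09 for the 10 genes and -0.00 for all genes.

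Among the ligands, Tgfb1, the isoform made by most cell types, stood at 47.4 CPM (44.5 to 50.5) in control and 108 CPM (105 to 112) in KO cells. The KO to control ratio was 2.28 (2.12 to 2.45). Tgfb2, the isoform of outflow tract and SMC development, went the other way, from 208 CPM (201 to 214) in control to 126 CPM (122 to 130) in KO cells, a ratio of 0.609 (0.582 to 0.636). Tgfb3 had a ratio of 0.602 (0.568 to 0.639), with 116 CPM in control and 69.8 CPM in KO cells. The 3 ligands thus did not move together: 1 was higher and 2 were lower. Tgfb3 lies at chr12:86056745-86079041 on the minus strand, inside the span of Ttll5 on the other strand. Ttll5 had 331 control and 521 KO UMIs. The sources used here do not give whether counting used strand.

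Leaving out every cell with 2 or more fibroblast marker UMIs kept 1610 control and 1132 KO cells. Under that change, added after the data were seen, Tgfb1 stood at a ratio of 1.90, while Tgfb2 at 0.679 and Tgfb3 at 0.711 no longer passed the threshold. Smad6, at 0.407, and Bambi, at 0.224, still did, as did Tgfbr2 at 1.79 and Smad7 at 1.88.

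Of the receptors, only Tgfbr2 differed past the threshold. This ligand-binding kinase stood at 43.1 CPM (40.3 to 46.1) in control and 82.2 CPM (79.0 to 85.5) in KO cells, a ratio of 1.91 (1.76 to 2.06). Its partner Tgfbr1 had 104 and 102 CPM and a ratio of 0.974 (0.922 to 1.03). The coreceptor Tgfbr3 had 28.4 and 37.9 CPM, a ratio of 1.34 (1.21 to 1.48). The whole interval lay above 1, but the ratio was under the threshold. The receptor pair was therefore unequal between the libraries: the ratio was near 1 for the type I chain and near 2 for the type II chain.

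Smad3, which carries the signal, was thinly sampled, at 9.59 CPM (192 UMIs) in control and 11.1 CPM (343 UMIs) in KO cells. Its ratio of 1.16 (0.971 to 1.39) could not be told from 1 at this depth. The inhibitors split. Smad7 was higher in the KO cells, at 290 CPM (284 to 296) where control cells had 143 CPM (138 to 149), giving a ratio of 2.02 (1.94 to 2.11). Smad6 was 2.21-fold lower, at 38.3 CPM (36.1 to 40.5) where control cells had 84.5 CPM (80.5 to 88.6). Bambi was 4.57-fold lower (4.30 to 4.85), at 47.2 CPM (44.8 to 49.7) in KO and 216 CPM (209 to 222) in control cells. Of the genes at the minimum level, 0.752% had a lower ratio than Bambi.

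**Figure D1:**
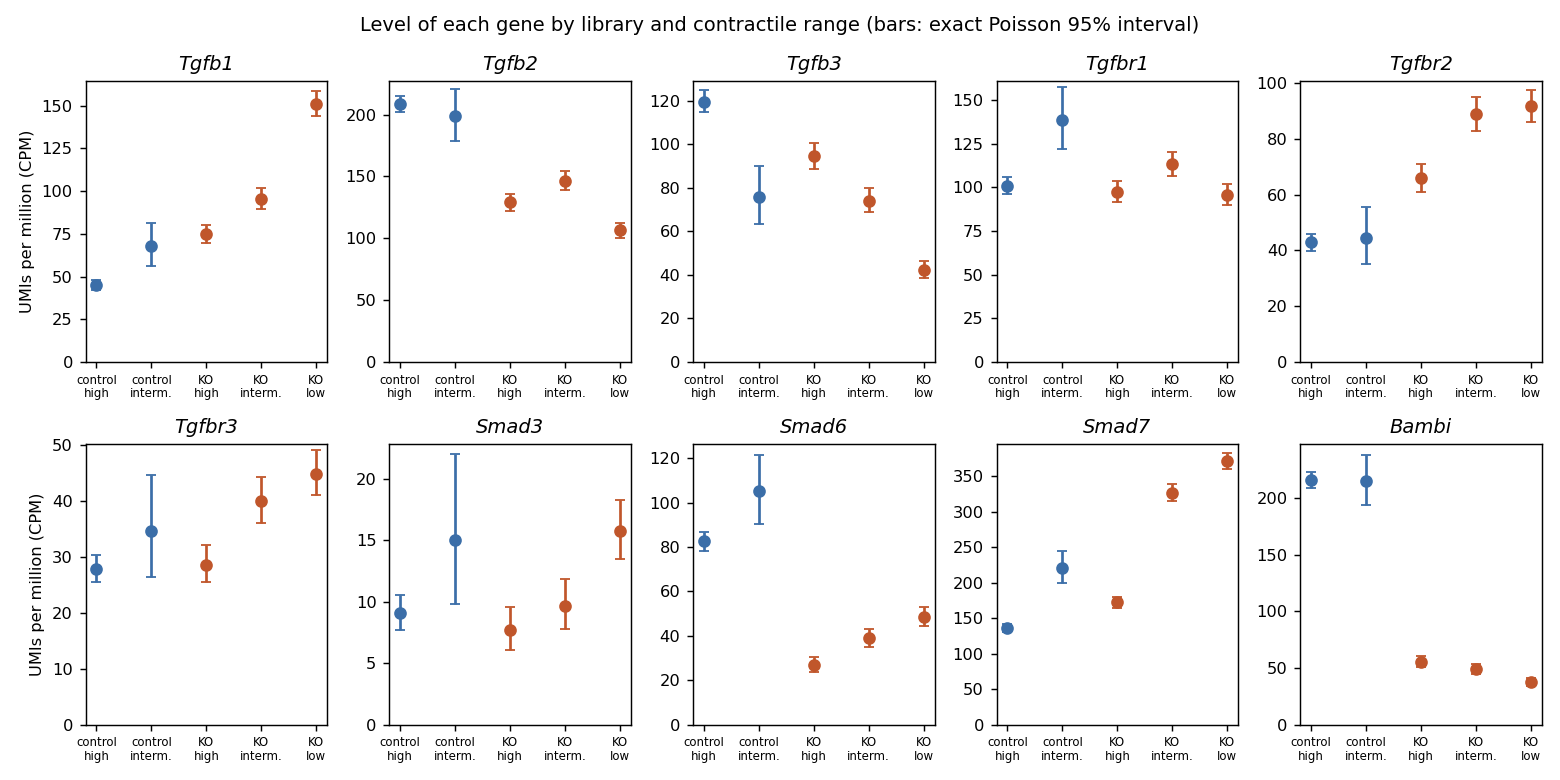
CPM of each gene in the 5 sets of kept cells that were large enough: control (blue) in the high and intermediate contractile ranges and KO (orange) in the high, intermediate and low ranges, with exact Poisson 95% intervals. Bambi and Smad6 sat lower in every KO range than in either control range, while Smad7 climbed from 136 CPM in the control high range to 371 CPM in the KO low range.

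The same was seen in the share of cells with a UMI when every cell was thinned to 5000 UMIs, which left out 90 control and 17 KO cells. Bambi was seen in 54.4% (52.0 to 56.9) of control cells and 19.2% (17.4 to 21.0) of KO cells. Before thinning the shares were 78.1% and 43.0%. The thinned shares for Smad6 were 29.6% in control and 16.9% in KO, for Smad7 45.8% and 66.2%, and for Tgfb1 19.9% and 38.7%. These shares differed in the same direction as the CPM.

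The 330 control cells without an eGFP UMI, at a median of 3750 UMIs, served as cells of other types. Their 8 macrophage and myeloid markers summed to 15496 CPM and their 6 lymphocyte markers to 3100 CPM, so these cells were a mixture. Tgfb2, Tgfb3 and Smad6 had no UMI in any of them, which allows a share of up to 0.909% of cells with a UMI (3 of 330). Bambi was seen in 3.33% of them before thinning and in 4.62% of the 65 that could be thinned, below its share in the KO cells. Tgfb1 stood higher in these cells than in either kept set, at 287 CPM (259 to 318), with a UMI in 53.9% before thinning and in 70.8% of the 65 thinned cells. Smad7 stood at 44.7 CPM with a UMI in 21.5% of thinned cells, Tgfbr1 at 32.6 CPM, Tgfbr2 at 31.1 CPM with a UMI in 12.3% of thinned cells, and Smad3 at 9.86 CPM, close to its level in kept control cells. Tgfbr3 had 1 UMI. Macrophage and myeloid markers summed to 14.8 CPM in the kept control and 13.8 CPM in the kept KO cells, and 1.48% and 2.45% of cells had 2 or more such UMIs. Without cells that had 2 or more macrophage or lymphocyte marker UMIs (Cd68 not counted), the Tgfb1 ratio was 2.26.

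**Figure D2:**
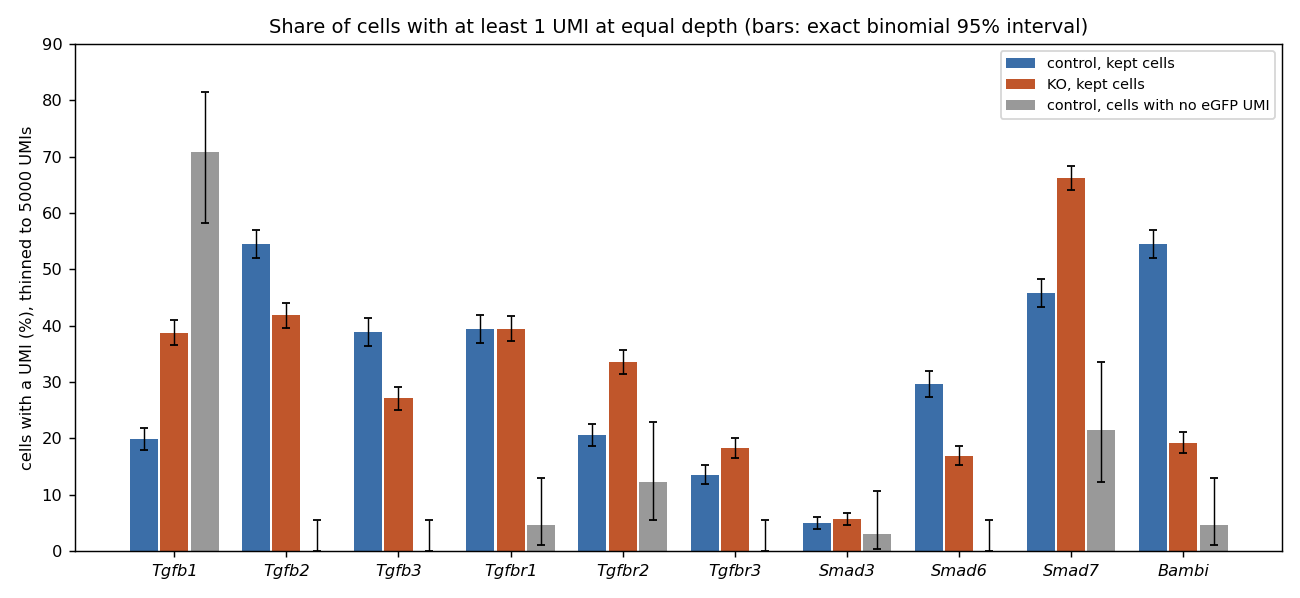
Percentage of cells with at least 1 UMI of each gene after thinning to 5000 UMIs, in kept control cells (blue), kept KO cells (orange) and control cells with no eGFP UMI (grey), with exact binomial 95% intervals. Cells with fewer UMIs were left out, so the grey bars rest on 65 of 330 cells. Bambi was seen in 54.4% of control and 19.2% of KO cells, and Tgfb1 was seen most often, in 70.8%, in the control cells that lacked eGFP.

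Comparing the genotypes within the high contractile range kept 5 of the 7 differences. Of the 9 genes at the minimum level there, 2 were higher and 3 lower, where 9.5% of 7934 genes were higher and 10.3% lower. Bambi had 216 CPM in control and 55.5 CPM in KO cells of this range, a ratio of 0.257 (0.235 to 0.281). Smad6 had 82.6 and 26.9 CPM, a ratio of 0.326 (0.286 to 0.371), further from 1 than over all cells. Tgfb2, with 209 and 129 CPM, had a ratio of 0.618 (0.581 to 0.658).

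Tgfb1, at 45.0 and 74.7 CPM, and Tgfbr2, at 42.9 and 66.0 CPM, remained higher in the KO cells of the high range, with ratios of 1.66 (1.50 to 1.83) and 1.54 (1.38 to 1.70). Cuts at the quartiles of the KO cells took Tgfbr2 under the threshold. Smad7 came down to 1.27 (1.19 to 1.35), from 136 CPM in control to 172 CPM in KO cells, and Tgfb3 stood at 0.790 (0.732 to 0.852). Smad3 was under the minimum level there.

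KO cells of the high range still had a lower median contractile share than control cells, 4.40% against 5.40%. A narrower band, chosen after the data were seen, held the 381 control and 187 KO cells with shares from 4% to 5%, whose medians were 4.51% and 4.47%. There 0 of 9 genes were higher and 3 lower, where 11% of 8078 genes were higher and 15.5% lower. The 3 were Bambi at a ratio of 0.248 (0.209 to 0.292), Smad6 at 0.274 (0.216 to 0.345) and Tgfb2 at 0.595 (0.529 to 0.668). Smad7 was at 0.954 (0.854 to 1.07), with 183 CPM in control and 174 CPM in KO cells. Tgfb1 at 1.33 (1.10 to 1.61) and Tgfbr2 at 1.41 (1.16 to 1.71) had intervals wholly above 1 but ratios under the threshold.

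In the intermediate range, with only 186 control cells, 1 gene was higher and 3 were lower, where 11.5% of 8452 genes were higher and 18.5% lower. Tgfbr2 had a ratio of 1.997 (1.58 to 2.56), Smad6 0.370 (0.309 to 0.444) and Bambi 0.229 (0.199 to 0.263). The last was Smad3 at 0.642, from 26 control and 92 KO UMIs, and its interval of 0.412 to 1.03 includes 1. Tgfb1 at 1.41 and Smad7 at 1.48 fell short of the threshold, as did Tgfb2 at 0.736, and Tgfb3 was at 0.977 (0.810 to 1.19). Lymphocyte markers summed to 46.3 CPM in control and 3.57 CPM in KO cells of this range, where 1 control and 2 KO cells had 2 or more such UMIs. The same 4 genes passed the threshold without cells that had 2 or more fibroblast marker UMIs, and without those that had 2 or more macrophage or lymphocyte marker UMIs.

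**Figure D3:**
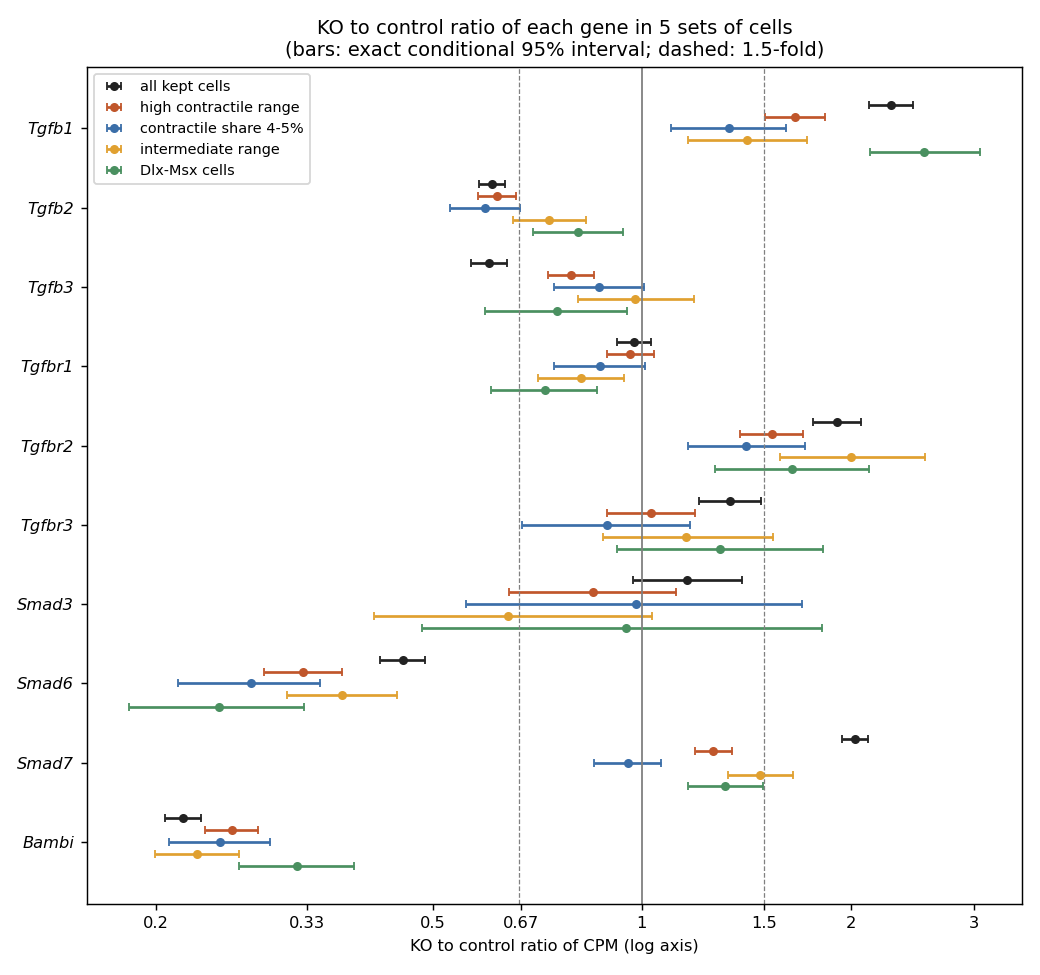
KO to control ratio of CPM (log axis) for each gene in all kept cells, the high and intermediate contractile ranges, the band of 4% to 5% contractile share and the Dlx-Msx cells, with exact conditional 95% intervals and dashed lines at 1.5-fold. Bambi and Smad6 lay left of the lower dashed line in all 5 sets, while Smad7 ran from 2.02 in all kept cells to 0.954 in the 4% to 5% band.

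Within the KO library, cells of the low contractile range held more of 5 genes and less of 1 than cells of the high range, where 12.1% of 8045 genes were higher and 8.69% lower. Smad7 stood at 172 CPM in the high, 327 CPM in the intermediate and 371 CPM in the low range, a low to high ratio of 2.16 (2.04 to 2.28). Tgfb1 stood at 74.7, 95.7 and 151 CPM in the same order, a ratio of 2.02 (1.86 to 2.21). Tgfb3 ran the other way, at 94.4, 74.0 and 42.4 CPM, a ratio of 0.449 (0.401 to 0.502).

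Smad6 was also higher in the low range, at 48.5 CPM against 26.9 CPM in the high range, a ratio of 1.80 (1.56 to 2.09). Smad6 was thus lower in KO than in control cells and yet higher in the less contractile KO cells. Smad3, at 15.8 against 7.69 CPM, had a ratio of 2.05 (1.56 to 2.70). Tgfbr3 had a ratio of 1.57 (1.36 to 1.82), which came to 1.44 on thinned cells. Bambi, at 37.7 against 55.5 CPM, had a ratio of 0.679 (0.597 to 0.772), just inside the threshold. The interval of Tgfbr1 included 1 (0.986, 0.903 to 1.08).

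Fibroblast markers moved with this axis, summing to 81.6 CPM in the high, 197 CPM in the intermediate and 1612 CPM in the low KO range, and 465 of the 640 low cells had 2 or more such UMIs. Without such cells, 175 low and 514 high cells remained, and the low to high ratios were 2.14 for Smad7, 1.73 for Tgfb1, 1.96 for Smad6, 2.02 for Smad3 and 0.546 for Tgfb3. Bambi passed the threshold there at 0.609, and Tgfbr3, at 1.37, did not. Glia markers also moved with the axis, from 3.65 CPM in the high to 38.3 CPM in the low range, mostly S100b at 2.79 and 36.2 CPM, and 1.25% and 11.6% of cells had 2 or more such UMIs. Macrophage and myeloid markers summed to 11.9, 14.4 and 15.2 CPM over the high, intermediate and low ranges. The same 6 genes passed the threshold without the glia marker cells, with Tgfb1 at 1.95 and Smad6 at 1.90, and without the cells with macrophage or lymphocyte marker UMIs.

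The control library gave the same axis without the KO genotype. Its 564 cells of lowest contractile share (median 3.55%) were set against its 564 of highest share (median 6.82%). Of the 10 genes 3 were higher in the less contractile cells and 0 lower, where 15.6% of 7962 genes were higher and 1.81% lower. Smad7 stood at 203 CPM in the less contractile and 91.1 CPM in the more contractile control cells, a ratio of 2.23 (2.03 to 2.46). Smad6 had a ratio of 1.59 (1.41 to 1.79) and Tgfb1 1.58 (1.35 to 1.85). Without cells that had 2 or more UMIs summed over the homeobox genes Dlx5, Dlx6 and Msx2, Smad7 alone stayed past the threshold, with Smad6 at 1.42 and Tgfb1 at 1.39. Tgfb3 was at 0.675 (0.607 to 0.750), short of the threshold. Fibroblast markers summed to 105 CPM in the less and 15.6 CPM in the more contractile control cells, and lymphocyte markers to 26.6 and 2.93 CPM. Leaving out cells with 2 or more fibroblast marker UMIs gave 2.25 for Smad7, 1.62 for Smad6 and 1.55 for Tgfb1, and leaving out those with 2 or more macrophage or lymphocyte marker UMIs gave 2.22, 1.59 and 1.58. Bambi was at 212 and 210 CPM, a ratio of 1.01 (0.936 to 1.09), so its level did not follow the contractile share among control cells.

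Splitting each library into 10 equal pools of cells by contractile share showed the same in finer steps. Bambi ranged from 186 to 249 CPM over the control pools and from 36.1 to 60.1 CPM over the KO pools, and the ranges did not overlap. Tgfbr2 was the other gene without overlap, at 34.5 to 53.3 CPM in control and 61.7 to 96.1 CPM in KO pools. The ranges of the other 8 genes overlapped. The share of all genes without overlap was not computed, so it is not known how unusual such a separation is here. For Smad7 the ranges were 62.2 to 226 CPM and 105 to 398 CPM.

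Correlations over these pools are descriptions, since the 10 pools of a library share their animals, preparation and scoring genes. Pearson's r of Smad7 with the contractile share was -0.975 in control and -0.963 in the KO pools (Spearman's rho -1 and -0.964). For Tgfb3 r was 0.933 and 0.879, for Smad6 -0.888 and -0.924, and for Tgfb1 -0.809 and -0.932. Bambi had an r of -0.181 in control and 0.888 in the KO pools. Smad6 and Smad7 followed each other within a library, with r of 0.926 in control and 0.956 in KO pools, although their levels differed between the libraries in opposite directions.

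Pools of almost the same contractile share can be set side by side. At a share of 6.33% for control and 6.19% for KO, Smad7 stood at 116 CPM (102 to 131) and 105 CPM (94.6 to 117), with overlapping intervals. In the same pools Bambi stood at 249 and 60.1 CPM, Smad6 at 66.3 and 20.4 CPM, and Tgfb1 at 37.7 and 66.2 CPM. At 2.50% and 2.49%, Smad7 stood at 226 CPM (203 to 251) and 308 CPM (288 to 329), which did not overlap. There Tgfb1, at 73.5 CPM (60.7 to 88.2) and 85.9 CPM (75.4 to 97.4), overlapped, while Bambi stood at 197 and 44.7 CPM and Smad6 at 107 and 40.1 CPM.

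**Figure D4:**
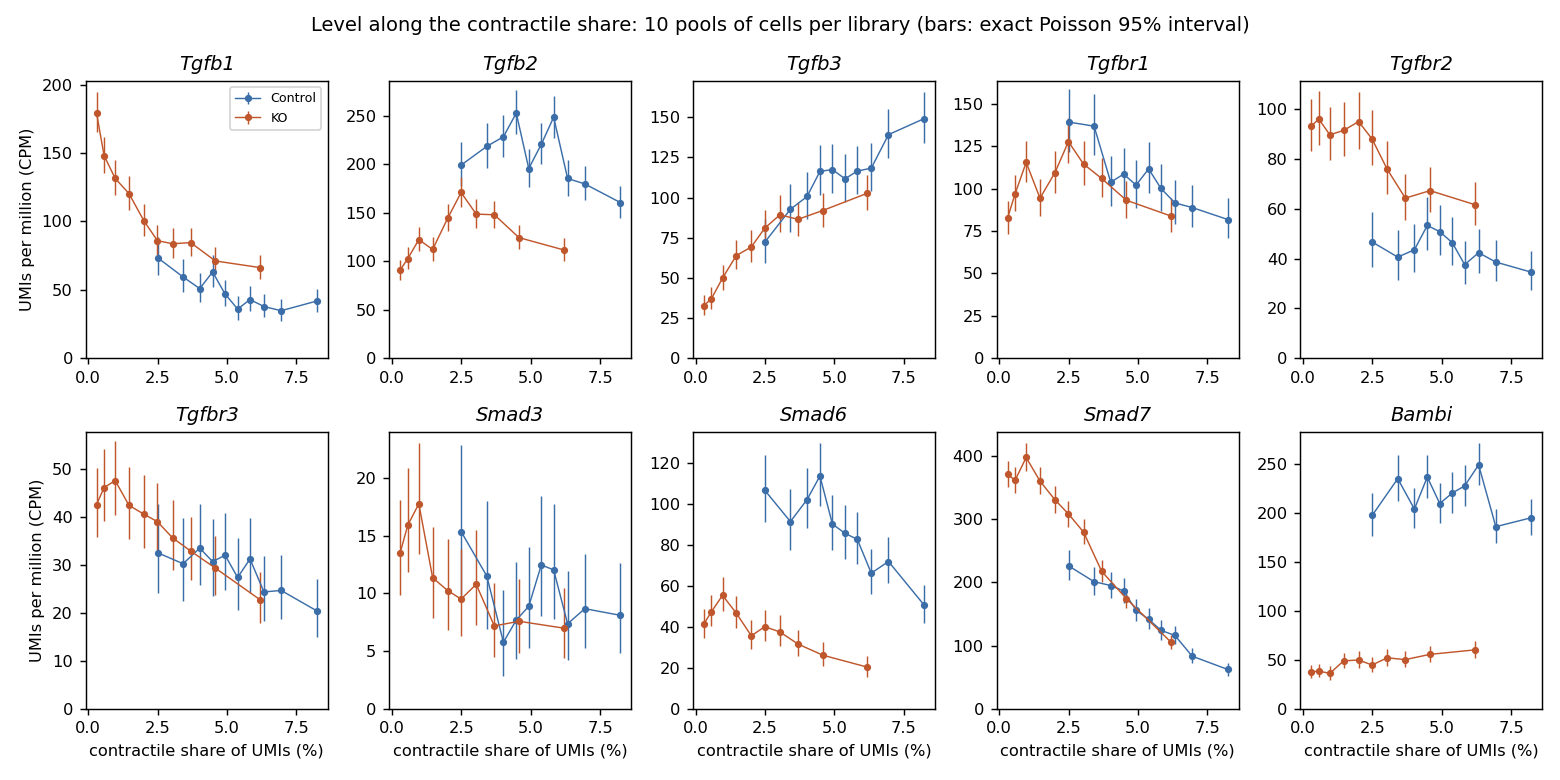
CPM of each gene (vertical axes, from 0) against the contractile share of UMIs (%) for 10 pools of cells per library, control in blue and KO in orange, with exact Poisson 95% intervals. The Bambi curves stayed apart, at 186 to 249 CPM in control and 36.1 to 60.1 CPM in KO pools. Smad7 stood at 186 CPM (168 to 207) in the control pool at a share of 4.48%. In the KO pool at 4.58% Smad7 stood at 174 CPM (160 to 190), so the intervals overlapped.

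Ordered over the 5 sets of library and range, the genes differed in whether the intervals of neighbours separated. Separation also depends on the number of UMIs, since thinly sampled genes have wide intervals. The share of all genes with separate neighbours was not computed. The 4 neighbouring pairs all had separate intervals for Smad7, whose order was control high, KO high, control intermediate, KO intermediate, KO low. For Smad6 they also separated, in the order KO high, KO intermediate, KO low, control high, control intermediate. Bambi went from KO low, the lowest, to control high, with 2 of 4 pairs overlapping, both within a library. For Tgfbr3 and Smad3 all 4 neighbouring pairs overlapped, and for Tgfbr1 the highest set, control intermediate, was only 1.45-fold above the lowest.

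A group of cells with at least 2 UMIs summed over Dlx5, Dlx6 and Msx2 was present in both libraries, with 256 control and 113 KO cells. These homeobox transcription factors mark positions in the embryo and are known to respond to BMP. Between genotypes 2 of 9 genes were higher and 2 lower in these Dlx-Msx cells, where 15.2% of 8599 genes were higher and 19% lower. Smad6 had 120 CPM in control and 29.7 CPM in KO cells, a ratio of 0.247 (0.183 to 0.326), and Bambi 216 and 69.1 CPM, a ratio of 0.320 (0.263 to 0.386). Tgfb1 had 67.1 and 171 CPM, a ratio of 2.55 (2.13 to 3.06). Tgfbr2 had a ratio of 1.64 (1.28 to 2.12), which came to 1.14 when 4 or more UMIs were asked for. The 2 sets also differed in contractile share, with medians of 3.61% and 0.872%, in fibroblast markers, which summed to 43.4 and 793 CPM, and in glia markers, at 1.41 and 39.9 CPM. The part of these in the ratios was not tested.

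Among control cells, the Dlx-Msx cells held more of 2 genes and less of 1 than the other 1436, where 13.1% of 8155 genes were higher and 3.97% lower. Smad6 was at 120 against 78.6 CPM, a ratio of 1.53 (1.36 to 1.73), and Tgfb1 at a ratio of 1.52 (1.29 to 1.78). Tgfb3 was lower, at 76.6 against 122 CPM, a ratio of 0.627 (0.543 to 0.721). Bambi did not differ, at 216 CPM in both. The contractile share was lower in the Dlx-Msx cells, 3.61% against 5.41%.

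The rest of the pathway was read from 7 lists of 115 genes in all, 5 of them in 2 lists. For the counts over all kept cells, 13.2% of all genes at the minimum level were higher and 11.4% lower. Of the genes that bind or release latent TGF-beta, 18 of 21 were at the minimum level, 5 higher and 5 lower in KO cells, with a median log2 ratio of 0.08 against -0.00 for all genes. Thbs1 (thrombospondin), an activator of latent TGF-beta, stood at 15.9 CPM in control and 174 CPM in KO cells, a ratio of 10.9 (9.77 to 12.3). Its ratio was 4.61 within the high contractile range. The proteoglycan Dcn, which binds TGF-beta, had a ratio of 15.4 and is also one of the fibroblast markers. At the other end stood Itgb3, an integrin chain, at 0.498 (0.458 to 0.542) and Lrrc32, which holds latent TGF-beta at the cell surface, at 0.532 (0.473 to 0.597).

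Of 13 other receptors of the family, 9 were at the minimum level, 0 higher and 2 lower, with a median log2 ratio of -0.18. Both lower ones were type I receptors, Bmpr1b for BMPs at 0.406 (0.355 to 0.463) and Acvrl1 at 0.547 (0.482 to 0.621). The highest were Eng at 1.37 and Bmpr2 at 1.28. Of 20 other SMADs and SMAD regulators, 19 were at the minimum level, 4 higher and 1 lower, with a median log2 ratio of 0.10. Tgif1, a repressor that binds SMADs, had 10.4 and 38.3 CPM and a ratio of 3.67 (3.16 to 4.27). The ubiquitin ligase Smurf1, which works with SMAD6 and SMAD7, had 1.97 (1.74 to 2.24). Smad9 at 0.560 (0.471 to 0.666), past the threshold, and Smad1 at 0.694 (0.638 to 0.755), short of it, were the lowest, both SMADs of the BMP branch.

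Of 15 BMP, activin and GDF ligands only 6 were at the minimum level, 3 higher and 2 lower. Gdf15, a stress-induced member, had 29.8 and 198 CPM and a ratio of 6.65 (6.11 to 7.24). Bmp4 had a ratio of 3.31 (2.64 to 4.18) over all cells and 0.707 within the high range. Gdf10 stood at 0.283 (0.241 to 0.331), and Inhba, which encodes the activin A chain, at 0.532 (0.505 to 0.560). Among 14 extracellular antagonists, 9 were at the minimum level, 2 higher and 4 lower, with a median log2 ratio of -0.55. Nbl1 at 2.95 and Fst (follistatin) at 2.61 were the highest. The serine proteases Htra3 at 0.396 and Htra1 at 0.423 were the lowest.

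Of 25 genes known as TGF-beta targets, 21 were at the minimum level, 4 higher and 7 lower, with a median log2 ratio of -0.16. Postn (periostin) at 0.355 (0.346 to 0.364) and Col3a1 (a fibrillar collagen) at 0.440 (0.427 to 0.453) were the lowest, while Thbs1 and Tgif1, which are also on this list, were the highest. Within the high range 2 of 21 were higher and 10 lower, where 9.5% of all genes were higher and 10.3% lower. The median log2 ratio of the list there was -0.58 against -0.02 for all genes. Of 12 BMP targets, 9 were at the minimum level over all kept cells, 0 higher and 4 lower, with a median log2 ratio of -0.46. Msx2 stood at 0.110 (0.0811 to 0.146) and Id4 at 0.275 (0.256 to 0.296), whereas Id1 at 1.01 and Id3 at 1.06 were close to 1. Dlx-Msx cells, which Msx2 helps define, were 15.1% of kept control and 5.89% of kept KO cells. Among control cells, 8 of 11 BMP targets were higher in Dlx-Msx cells and 0 lower, where 13.1% and 3.97% of all genes were. Between genotypes within Dlx-Msx cells, 0 of 11 were higher and 6 lower, where 15.2% and 19% of all genes were. The part of this cell mix in the ratios was not tested. Over all kept cells, the antagonist, BMP target, other receptor and TGF-beta target lists had medians below that of all genes, and the other lists above it. Of the 6 BMP, activin and GDF ligands 3 were higher and 2 lower, and of the 18 latent TGF-beta genes 5 were higher and 5 lower. Of all genes 13.2% were higher and 11.4% lower.

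**Figure D5:**
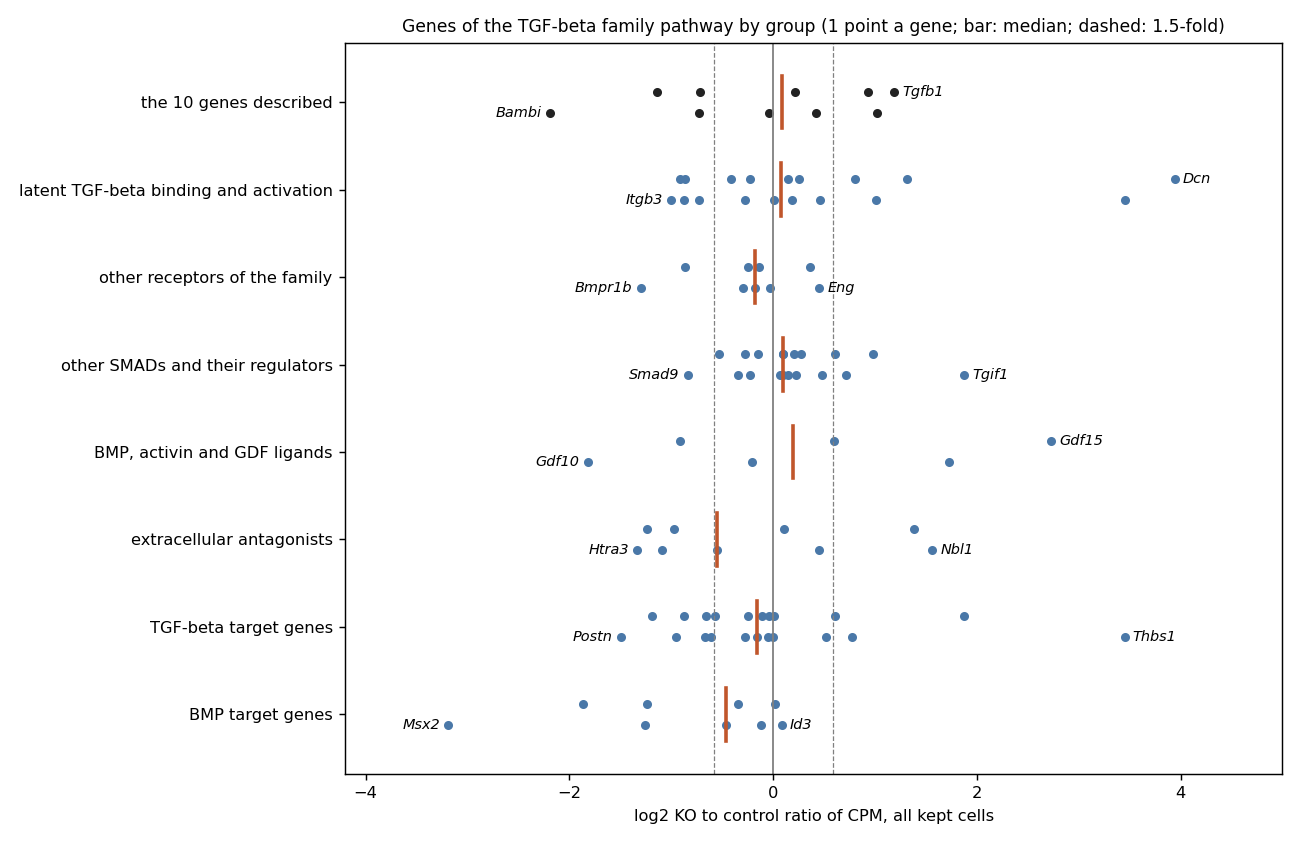
log2 KO to control ratio of CPM over all kept cells for the 10 genes (black) and the genes of 7 pathway lists at the minimum level (blue, 1 point a gene), with the median of each list as an orange bar and dashed lines at 1.5-fold. The 10 genes spread from Bambi at -2.19 to Tgfb1 at 1.19, and the medians of the lists lay between -0.55 and 0.19.

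The genes most like each of the 10 were sought by Pearson's r of log2(CPM + 1) over the 20 pools among 5443 genes, a description over pools that share 2 libraries. Smad7 was most like Zcchc14 (r of 0.983) and Cacna1d (0.976), and r stayed at 0.947 or more within each library. Tgfb3 was most like Bcam (0.985) and Lims2 (0.984), with r of 0.927 or more within each library. Tgfb1 was most like Mmp2 (0.972), a matrix protease. Smad6 was most like Meg3 (0.974), a noncoding RNA at 619 CPM in control and 109 CPM in KO cells. For Bambi the nearest was Cirbp (0.989), with r of only 0.323 among control pools and 0.874 among KO pools, so that the likeness lay mostly in the step between the libraries. Among the ribosomal and unnamed neighbours of Bambi, Rpl27 and Gm8797, r within the control pools was -0.02 and -0.10.

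The authors' deposited table of averages gives means per 10000 counts by cluster and library, with no error and with no cluster names in the sources used here. In 4 clusters both libraries had eGFP at 30 or more. In the authors' deposited table Bambi was lower in the KO column in 4 of 4 of them, at 2.02, 2.58, 3.13 and 2.55 in control and 0.690, 0.759, 0.516 and 1.53 in the KO columns of clusters 0, 1, 2 and 4. Smad6 and Tgfb3 were also lower in 4 of 4 in the authors' deposited table, where the ratios for Tgfb3 ran from 0.611 in cluster 2 to 0.988 in cluster 4. Tgfb1 was higher in 4 of 4 there, with ratios of 1.25 to 2.38. In the authors' deposited table Smad7 was higher in the KO column of 1 cluster (2.31 and 3.72 in cluster 2) and lower in the other 3, and Tgfbr2 was likewise higher in 1 and lower in 3. Tgfb2 was mixed in the authors' deposited table, higher in 2 clusters and lower in 2, with ratios from 0.551 to 1.13.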

How the data were processed

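Thoracic aorta SMCs were profiled in 2 droplet libraries, Control and KO, 1 per genotype. The authors deposited raw UMI counts per gene and cell, and a table of averages per cluster and library whose values, on a linear signal scale, sum to 10000 per column, per the file headers and values. The submitters' processing notes name Cell Ranger, bcl2fastq, Seurat 2.0 and build mm10. The sources used here do not give how cells were called.

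UMIs of all cells in a group were added up per gene and divided by the group total to give CPM, so that a group's level weights deep cells more. Exact Poisson, conditional binomial and Clopper-Pearson intervals at 95% cover counting error only. In kept cells 3 UMIs equal 0.150 CPM (control) and 0.0975 CPM (KO). The threshold of 1.5-fold has no p-value. Scripts were tested on simulated data. Scrublet called 8 control and 7 KO cells doublets, which were kept. That is under 0.5% of cells, in libraries of under 5000 cells. Software was Python 3.11.15, numpy 2.4.6, scipy 1.17.1 and scanpy 1.11.5. GENCODE gave gene positions on mm10.

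Named genes were the 10, from each pathway list the 2 highest and 2 lowest ratios and any at 3-fold or more, and up to 3 genes most like each of the 10. The genes, lists, ranges and tests were chosen with earlier results of these data known. Alternatives covered cell filters, scaling, thinning, doublets, cuts and folds. Those that leave out cells with fibroblast, glia or immune marker UMIs were added after the data were seen. Marker lists of other cell types covered endothelial cells (19.8 CPM summed in control and 12.1 in KO), fibroblasts, macrophages, lymphocytes (11.4 and 2.99), glia (2.15 and 16.7) and platelets (2.50 and 2.18).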

Additional observations from a re-analysis of the deposited data

Results flagged for a closer look

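Between the ends of the contractile share, Tgfb2 differed in opposite directions in the 2 libraries. In the KO library its low to high ratio was 0.824 (0.761 to 0.892), from 129 CPM in the high to 106 CPM in the low range, but the intermediate range lay above both, at 146 CPM. In the control library the less contractile cells held more, 219 against 181 CPM, a ratio of 1.21 (1.12 to 1.31). Along the KO pools Tgfb2 was highest at a share of 2.49%, at 171 CPM, and stood at 91.0 CPM in the least and 112 CPM in the most contractile pool. Among control pools it was highest at 4.48%, at 253 CPM, and stood at 199 and 161 CPM in the least and most contractile pools. So in both libraries the most contractile pool lay below pools of middle share. The contractile shares compared differ between the libraries, and the difference between the libraries was not tested. Without cells that had 2 or more fibroblast marker UMIs, the KO value was 1.11.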

How the results depend on the processing

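Of 41 recalculated counts of genes past the threshold, 38 stayed within 1.5 times the reported count. This compares counts only, and the genes behind a like count can differ. Without the fibroblast marker cells, Tgfb2 and Tgfb3 were lost over all kept cells. Between the low and high KO ranges, the same change lost Tgfbr3 and gained Bambi. With a fold of 2 the count over all kept cells was 4 instead of 7, Tgfb1 and Smad7 higher and Smad6 and Bambi lower, because the rule is stricter. Narrowing the high range to the 4% to 5% band gave 3 instead of 5, and leaving Dlx-Msx cells out of the control comparison gave 1 instead of 3. The cause was not tested. Of 380 recalculated ratios of single genes, 345 stayed within the counting interval, 35 moved outside it and 0 of the called ones reversed. Over all kept cells Bambi ranged from 0.212 to 0.229, Smad6 from 0.407 to 0.494, Smad7 from 1.88 to 2.15 and Tgfb1 from 1.90 to 2.63 over 14 alternatives. Scaling to the median ratio of 2393 genes moved the ratios little, the median ratio being 0.971. No paired analysis was possible because each genotype has 1 library. Depth limits Smad3, with 192 control UMIs, most of the 10 genes.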
